A study of Mus musculus with 18 samples.

Results

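The 8 genes of GABA and glycine metabolism followed here in the embryonic mouse spinal cord are the GABA-synthesising enzymes Gad1 and Gad2, the vesicular carrier Slc32a1, the plasma membrane GABA carriers Slc6a11 and Slc6a13, the glycine carriers Slc6a9 and Slc6a5, and the GABA-degrading enzyme Abat. They were chosen by name, as rows of the authors' table of coexpression modules, and all 8 of the 8 were found among the 23715 genes that could be named and tested.

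GABA and glycine are the inhibitory transmitters of the spinal cord. GABA is made from glutamate by the 2 decarboxylases, both transmitters are loaded into vesicles by Slc32a1, and both are cleared from the extracellular space by sodium-coupled carriers of the Slc6 family. Slc6a11 (also called GAT3) and Slc6a9 (GlyT1) are known as carriers of astrocytes, Slc6a5 (GlyT2) is the carrier of glycinergic neurons, and Slc6a13 (GAT2) is best known from the meninges, liver and kidney.

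Microarrays were made from spinal cords of embryos on a Swiss-Webster background with the Aldh1l1-GFP transgene, which places a green fluorescent protein under the control of the astrocyte folate enzyme gene Aldh1l1. After papain dissociation, GFP-positive cells (GFP cells) and all live cells (whole) were taken by flow sorting from the same kind of transgenic cord, so that every group carries the transgene. There were 3 arrays of GFP cells at E13.5, 2 at E14.5, and 3 in a late group made of 2 at E17.5 plus 1 at E18.5. For whole there were 3 per age, with late arrays of the same 2 ages. The titles call the comparison cells all live sorted cells while a treatment text mentions GFP-negative cells. Here they are treated as all live cells, which still contain the GFP cells, so that a ratio of GFP cells to whole understates a contrast with GFP-negative cells. A further array, called mislabeled in its title, entered no comparison. Replicates are labelled biological, but no litter or animal is given, and a p-value here reflects only how far these samples spread.

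Values are the authors' log2 expression values, 1 probe set per gene. Array medians over all genes lay between 7.73 and 7.82, and arrays of 1 group correlated at 0.985 to 0.994. Aldh1l1, the check of the sort, lay at 9.85 to 10.28 in all GFP arrays and at 7.60 to 9.39 in all whole arrays. Differences were tested with limma on all 17 assigned arrays, adjusted by Benjamini-Hochberg over the 23715 genes, with a threshold of 0.05 on the adjusted p. They are given in log2 with limma's standard error. An array level cannot be set against that of another gene, because each probe set has its own brightness, and in bulk samples fewer cells of a type and less RNA per cell cannot be told apart.

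RefSeq promoters (build GRCm38.p6, 250 bases before the start) were found for 7 of the 8 genes, with 12 start sites in all. The stretches of 3 genes are shown because the results turn on their contrast: Slc6a11 rose most with age, Gad2 was lowest in GFP cells relative to whole, and Slc6a5 fell in whole. Capitals mark the letters of the RBPJ core motif, searched on both strands as TGGGAA. Which start site the arrays read is not known.
Slc6a11 (chr6:114130991-114131240, plus strand): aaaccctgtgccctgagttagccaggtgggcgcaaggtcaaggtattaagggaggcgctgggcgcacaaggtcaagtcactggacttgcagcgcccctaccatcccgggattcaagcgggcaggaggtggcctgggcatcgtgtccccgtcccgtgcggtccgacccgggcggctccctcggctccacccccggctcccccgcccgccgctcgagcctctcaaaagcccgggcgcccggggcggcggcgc
Gad2 (chr2:22622077-22622326, plus strand): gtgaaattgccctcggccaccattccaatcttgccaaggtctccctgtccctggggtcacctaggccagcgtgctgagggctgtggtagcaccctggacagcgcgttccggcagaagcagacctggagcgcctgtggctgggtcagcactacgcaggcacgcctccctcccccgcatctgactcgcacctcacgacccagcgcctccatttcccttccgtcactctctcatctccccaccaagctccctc
Slc6a5, first of 2 start sites (chr7:49910049-49910298, plus strand): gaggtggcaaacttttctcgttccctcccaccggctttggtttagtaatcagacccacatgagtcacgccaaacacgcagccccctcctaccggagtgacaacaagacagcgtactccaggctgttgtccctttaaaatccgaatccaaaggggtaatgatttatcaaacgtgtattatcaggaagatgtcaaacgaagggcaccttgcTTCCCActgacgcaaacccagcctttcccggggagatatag
The stretch of Slc6a11 was 71.2% G and C, that of Gad2 64.0% and that of Slc6a5 50.4%, where the median of all promoters of this length was 52.4%. The RBPJ core was in 1 stretch of Slc6a5 and in 2 of the 3 of Slc6a13, and in none of the others, against 21.6% of 32817 promoters. The E-box CAGCTG (in 13% of promoters) was in 1 stretch of Slc6a13, and the SOX core AACAAT (9.42%) and the NFI site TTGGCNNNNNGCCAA (0.0366%) were in none of the 12. A match or its lack describes these letters only.

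At E13.5 the carriers Slc6a11 and Slc6a9 and the enzyme Abat were higher in GFP cells than in whole, and the decarboxylases, the vesicular carrier, Slc6a5 and Slc6a13 were lower. All 8 passed the threshold, 3 higher and 5 lower. Of all genes tested, 11.1% passed higher and 8.04% lower.

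Slc6a11, which takes up GABA, measured 10.92, 11.22 and 11.19 in the GFP cells and 8.51, 8.95 and 9.04 in whole at E13.5. That is 4.83-fold more in the GFP cells (2.27 ± 0.18 log2, adjusted p = 1.05e-07). Every GFP array stood well above every whole array. Slc6a9, which takes up glycine, measured 10.05, 10.24 and 10.33 against 8.27, 8.55 and 8.52, a 3.39-fold difference (1.76 ± 0.10, adjusted p = 4.48e-09). Abat, the mitochondrial transaminase that starts GABA breakdown, had a narrower margin, at 10.99, 10.95 and 10.92 against 10.44, 10.51 and 10.66 (0.42 ± 0.08, adjusted p = 0.00174). The lowest GFP array of Abat was 10.92 and the highest whole array 10.66.

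Gad2, the decarboxylase of nerve terminals, measured 7.86, 7.97 and 7.57 in the GFP cells and 9.78, 9.99 and 10.11 in whole at E13.5, so it was 4.48-fold lower in GFP cells (-2.16 ± 0.16, adjusted p = 6.2e-08). Gad1 measured 7.09, 7.15 and 7.07 against 7.74, 7.67 and 7.96, with -0.69 ± 0.10 (adjusted p = 0.000118). The Gad1 values of the GFP cells lay under the array medians, and background was not measured. Slc32a1, which loads both transmitters into vesicles, measured 7.94, 7.90 and 7.80 against 8.81, 8.96 and 8.80 (-0.98 ± 0.07, adjusted p = 7.39e-08). It was tightly grouped within each sort. Slc6a5, which feeds glycine into the terminals, measured 7.51, 7.72 and 7.34 against 9.25, 9.27 and 9.31 and was 3.37-fold lower in GFP cells (-1.75 ± 0.11, adjusted p = 1.14e-08). Slc6a13 measured 6.61, 6.61 and 6.92 against 7.62, 7.68 and 7.59 (-0.91 ± 0.15, adjusted p = 0.000236). Both sorts were under the array medians for this gene.

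**Figure D1:**
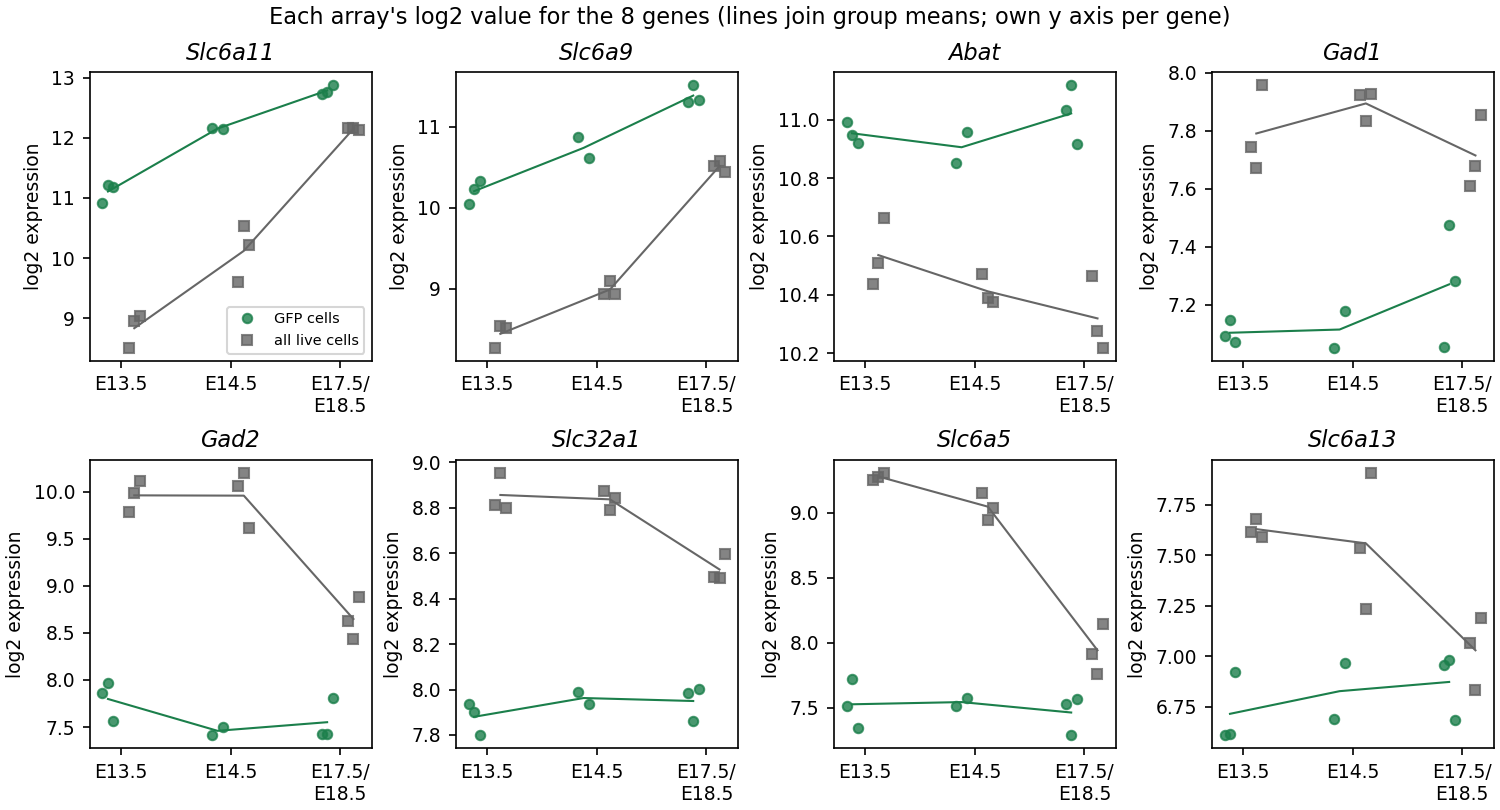
Log2 expression of the 8 genes on each of the 17 assigned arrays, by age on the x axis, with GFP cells as green circles, all live cells as grey squares and lines through the group means; the y axis differs by gene. Slc6a11 and Slc6a9 rise in both sorts, Gad2 and Slc6a5 fall in all live cells, and Abat stays at 10.85 to 11.12 in GFP cells.

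Marker lists moved with the sort in the same samples. All 20 pan-neuronal genes were lower in GFP cells at E13.5, and their summed linear level was 20970 to 22007 against 41595 to 45088 in whole. Of 19 astrocyte and radial glia genes 10 were higher and 1 lower, with a sum of 39399 to 39941 against 23643 to 24750. The transcription factors of inhibitory neurons had 7 of 20 lower and 1 higher, led by Lhx1 (-1.59 ± 0.10), Pax2 (-1.46 ± 0.13) and Tfap2b (-1.30 ± 0.23). Excitatory neuron genes had 7 of 10 lower and 0 higher, and microglia and macrophage genes 8 of 10 lower and 0 higher. Erythroid genes had 5 of 8 lower and 0 higher, with a sum of 1485 to 1947 in GFP cells against 26665 to 31444 in whole. The meningeal and perivascular fibroblast genes, listed because of Slc6a13, had 10 of 15 lower and 1 higher, with Postn at -2.48 ± 0.13 and Lum at -1.77 ± 0.18. The part of these cells in the values of the 8 genes was not tested.

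The same directions held at E14.5, where 2 GFP arrays faced 3 of whole. All 8 genes passed again, 3 higher and 5 lower, where 10.3% of all genes passed higher and 8.22% lower. Slc6a11 measured 12.17 and 12.14 in the GFP cells and 9.60, 10.54 and 10.23 in whole (2.03 ± 0.20, adjusted p = 1.05e-06). The whole arrays of this gene were spread over nearly a log2 unit. Slc6a9 measured 10.87 and 10.61 against 8.94, 9.10 and 8.94 (1.75 ± 0.11), and Abat 10.85 and 10.96 against 10.47, 10.39 and 10.38 (0.49 ± 0.09, adjusted p = 0.001). Among the lower genes Gad2 was at 7.41 and 7.50 against 10.06, 10.20 and 9.62, a 5.65-fold difference (-2.50 ± 0.18, adjusted p = 5.5e-08). Slc6a5 was at 7.51 and 7.57 against 9.15, 8.95 and 9.04 (-1.50 ± 0.12). The differences of Slc32a1 and Gad1 were -0.87 ± 0.08 and -0.78 ± 0.12. Slc6a13, at 6.69 and 6.97 against 7.53, 7.23 and 7.91, differed by -0.73 ± 0.16 (adjusted p = 0.00391). Without GFP replicate 1 that gene did not pass (-0.59, adjusted p = 0.0784).

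At the late age the 3 higher genes were still higher in GFP cells and 4 of the 5 lower ones still lower, against 4.63% of all genes higher and 4.68% lower. Slc6a9 measured 11.31, 11.51 and 11.34 in the GFP cells and 10.52, 10.58 and 10.44 in whole (0.87 ± 0.10, adjusted p = 2.32e-05). Abat measured 11.03, 11.12 and 10.92 against 10.46, 10.28 and 10.22 (0.70 ± 0.08, adjusted p = 3.42e-05). Slc6a11 measured 12.72, 12.77 and 12.87 against 12.17, 12.16 and 12.13, with no overlap and 0.64 ± 0.18 (adjusted p = 0.0298). That call ended when any 1 of the 6 late arrays was left out, GFP or whole (adjusted p 0.0588 to 0.0806 over the 6), and without the E18.5 arrays (0.58, adjusted p = 0.141).

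Gad2 measured 7.42, 7.43 and 7.80 in late GFP cells and 8.62, 8.43 and 8.89 in whole (-1.10 ± 0.16, adjusted p = 0.000191), and Slc32a1 7.99, 7.86 and 8.0 against 8.50, 8.49 and 8.60 (-0.58 ± 0.07, adjusted p = 5.18e-05). Slc6a5 measured 7.53, 7.29 and 7.57 against 7.92, 7.76 and 8.15 (-0.48 ± 0.11, adjusted p = 0.00915). Without GFP replicate 2 it stood at -0.39 (adjusted p = 0.0548) and without whole replicate 3 at -0.38 (adjusted p = 0.0549). Gad1, at 7.05, 7.48 and 7.28 against 7.61, 7.68 and 7.86, gave -0.44 ± 0.10 (adjusted p = 0.0101). Its adjusted p was 0.0603 without GFP replicate 1, 0.0558 without whole replicate 3 and 0.0789 without the E18.5 arrays. Slc6a13 overlapped between sorts, at 6.96, 6.98 and 6.68 against 7.07, 6.83 and 7.19 (-0.16 ± 0.15, adjusted p = 0.611). The 95% interval of that difference was -0.47 to 0.16.

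**Figure D2:**
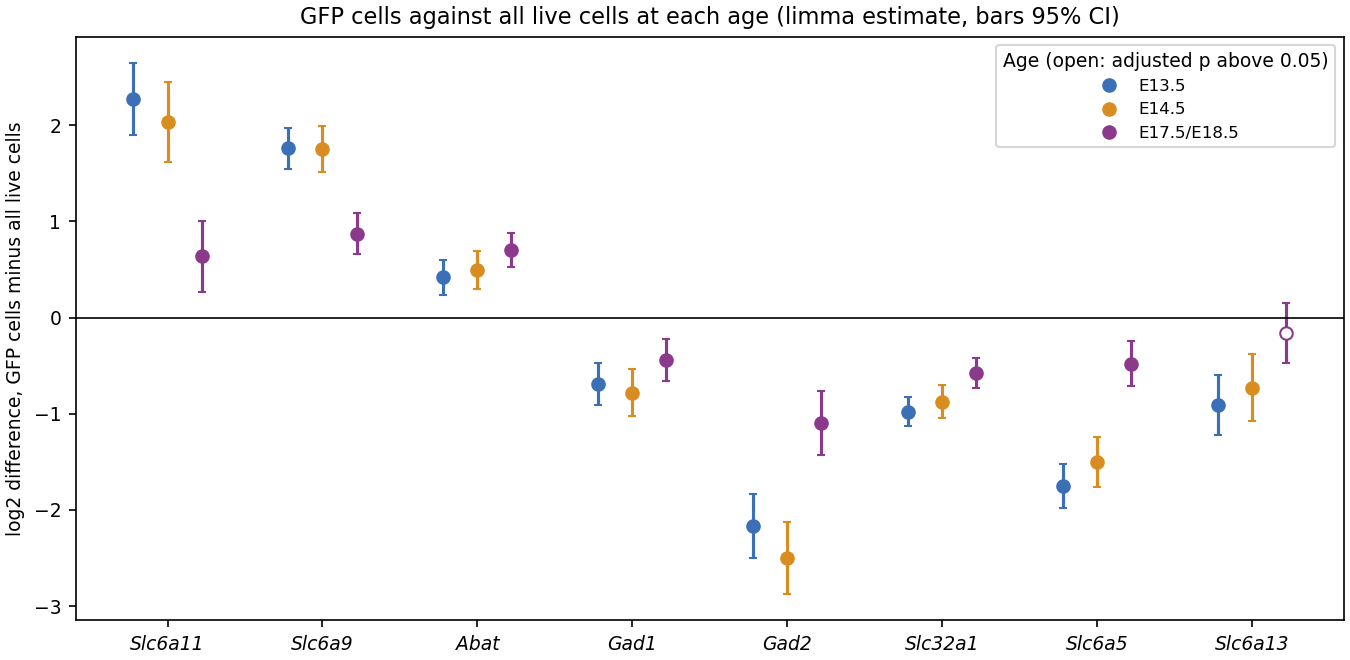
Log2 difference between GFP cells and all live cells for each gene at 3 ages (limma estimate with 95% confidence interval; open symbol, adjusted p above 0.05). Slc6a11, Slc6a9 and Abat lie above 0 and the other genes below it, with only Slc6a13 at the late age open (-0.16).

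At the late age, pan-neuronal genes were lower in GFP cells for 16 of 20, microglia and macrophage genes for 10 of 10, oligodendrocyte precursor genes for 7 of 10 and endothelial genes for 8 of 10. Only 1 of the 20 inhibitory transcription factors passed, Tfap2a at -0.47 ± 0.12. Excitatory neuron genes were lower for 2 of 10 and erythroid genes for 3 of 8. Meningeal and perivascular fibroblast genes were lower for 4 of 15 and mural genes for 6 of 10, with 0 higher in either list. Astrocyte and radial glia genes were higher for 12 of 19, among them Gfap (1.16 ± 0.14) and Gja1 (0.93 ± 0.09). The part of any of these cells in the late values was not tested.

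Within GFP cells, the glial carriers increased with age and the other 6 genes did not pass. From E13.5 to the late age Slc6a11 rose 3.2-fold (1.68 ± 0.18, adjusted p = 3.8e-06) and Slc6a9 2.27-fold (1.18 ± 0.10, adjusted p = 4e-07). They were the 2 of 8 genes that passed higher, and 0 passed lower (at an unadjusted p under 0.05, also 0), where 7.35% of all genes passed higher and 8.97% lower. Abat differed by 0.07 ± 0.08 and Slc32a1 by 0.07 ± 0.07. Gad1 was at 0.17 ± 0.10, Gad2 at -0.25 ± 0.16, Slc6a13 at 0.16 ± 0.15 and Slc6a5 at -0.06 ± 0.11. Over all 8 GFP arrays the ranges were narrow for these genes: 7.05 to 7.48 for Gad1, 7.41 to 7.97 for Gad2, 7.80 to 8.0 for Slc32a1 and 7.29 to 7.72 for Slc6a5. All of these Gad1 and Slc6a5 values lay under the lowest array median (7.73), and those of Gad2 lay on both sides of it. Background was not measured, so a small change in such dim values could be missed. In the same comparison 12 of 19 astrocyte and radial glia genes rose and 1 fell, and 11 of 20 pan-neuronal genes fell and 1 rose.

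By single intervals, Slc6a9 passed in both steps within GFP cells and Slc6a11 in the first. From E13.5 to E14.5 Slc6a11 rose by 1.05 ± 0.20 (adjusted p = 0.01) and Slc6a9 by 0.53 ± 0.11 (adjusted p = 0.0227), 2 of 8 genes against 0.915% of all genes higher and 0.595% lower. From E14.5 to the late age Slc6a9 rose by 0.65 ± 0.11 (adjusted p = 0.0018), and Slc6a11 stood at 0.63 ± 0.20 (adjusted p = 0.0691), where 2.99% of all genes passed higher and 3.31% lower. These steps share the E14.5 arrays, of which there are only 2. Without GFP E14.5 replicate 1 the first step had adjusted p = 0.111 for Slc6a11 and 0.316 for Slc6a9. Without replicate 2 it had 0.104 for Slc6a11, and the second step of Slc6a9 had 0.0605. Without GFP E13.5 replicate 1 the first step gave 0.0535 and 0.105 for the carriers in that order, and without replicate 2 it gave 0.0536 for Slc6a9.

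In whole, 6 of the 8 genes changed from E13.5 to the late age, of which 2 rose and 4 fell, with 10.2% of all genes higher and 10% lower. Slc6a11 rose 9.95-fold, from 8.51 to 9.04 up to 12.13 to 12.17 (3.31 ± 0.18, adjusted p = 1.03e-09). Slc6a9 rose 4.2-fold, from 8.27 to 8.55 up to 10.44 to 10.58 (2.07 ± 0.10, adjusted p = 4.31e-10). Both rose by more in whole than in the GFP cells, a contrast tested as the change of the sort difference. These comparisons share their whole arrays with the comparisons of the sorts. Gad2 fell by 1.31 ± 0.16 (2.49-fold, adjusted p = 9.56e-06) and Slc6a5 fell by 1.34 ± 0.11 (2.53-fold, adjusted p = 1.34e-07). Slc6a13 fell by 0.60 ± 0.15 (adjusted p = 0.00702) and Slc32a1 changed by -0.33 ± 0.07 (adjusted p = 0.00329). Abat stood at -0.22 ± 0.08 (adjusted p = 0.0848) and Gad1 at -0.08 ± 0.10 (adjusted p = 0.697). Abat passed without whole late replicate 1 (-0.29, adjusted p = 0.0317).

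The arrays behind these changes in whole show Gad2, Slc32a1 and Slc6a5 lower at the late age, and Gad1 did not pass the test. Gad1 spanned 7.61 to 7.96 over all 9 whole arrays and its ages overlapped, while Gad2 spanned 9.62 to 10.20 at E13.5 and E14.5 and 8.43 to 8.89 at the late age. Slc32a1 lay at 8.79 to 8.96 at both early ages and at 8.49 to 8.60 late. Slc6a5 lay at 9.25 to 9.31, then 8.95 to 9.15, then 7.76 to 8.15, with no overlap between the ages.

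Whole changed in its cell markers over the same interval. Pan-neuronal genes fell for 15 of 20, with a summed linear level of 41595 to 45088 at E13.5 and 22426 to 25254 late. The inhibitory transcription factors fell for 8 of 20, among them Tfap2b (-3.40 ± 0.23) and Lhx5 (-1.52 ± 0.13). Excitatory neuron genes fell for 5 of 10 and erythroid genes for 1 of 8. Astrocyte and radial glia genes rose for 13 of 19 with 1 lower. Oligodendrocyte precursor genes rose for 10 of 10, microglia and macrophage genes for 9 of 10, endothelial genes for 8 of 10 and mural genes for 7 of 10. Meningeal genes fell for 5 of 15 and rose for 1, with a sum of 4964 to 5128 at E13.5 and 3977 to 4073 late, beside the fall of Slc6a13. Their part in the whole values was not tested.

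The difference between sorts itself changed with age. Set against E13.5, the late difference was smaller for Slc6a11 by -1.64 ± 0.25 (adjusted p = 0.000916) and for Slc6a9 by -0.89 ± 0.14 (adjusted p = 0.00138). It was less negative for Slc6a5 by 1.27 ± 0.16 (adjusted p = 0.000134), for Gad2 by 1.07 ± 0.22 (adjusted p = 0.00932), for Slc6a13 by 0.76 ± 0.21 (adjusted p = 0.0482) and for Slc32a1 by 0.40 ± 0.10 (adjusted p = 0.0348). That is 4 genes moving up and 2 down, where 1.62% of all genes passed higher and 3.01% lower. Abat (0.29 ± 0.12) and Gad1 (0.24 ± 0.15) did not pass. The calls of Slc6a13 and Slc32a1 ended in 9 and 8 of the 12 fits that left out 1 array of these ages, GFP or whole, with adjusted p up to 0.114 and 0.0913. Against E14.5 the late difference was smaller for Slc6a11 (-1.40 ± 0.26) and Slc6a9 (-0.88 ± 0.15) and less negative for Gad2 (1.40 ± 0.24) and Slc6a5 (1.02 ± 0.16). Of all genes 1.95% passed higher and 3.2% lower there. Without whole E14.5 replicate 2, Slc6a13 passed too (0.74, adjusted p = 0.0453). Both tests use the same late arrays. Marker lists moved in the change since E13.5 as well. The late difference between sorts was lower for 9 of 10 microglia and macrophage genes (median -1.63), 7 of 10 oligodendrocyte precursor genes (median -1.21), 5 of 10 endothelial and 3 of 10 mural genes. It was higher for 4 of 20 inhibitory transcription factors and none was lower, while astrocyte and radial glia genes had 4 of 19 higher and 6 lower. Pan-neuronal genes had 2 of 20 higher and 3 lower, and meningeal genes 4 of 15 higher and 1 lower. Excitatory neuron genes had 2 of 10 higher and 0 lower, and erythroid genes 1 of 8 higher and 0 lower. The median over all genes was 0.06, and the part of these cells in the change was not tested.

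Order within each gene followed from these levels. For Slc6a11 the late GFP cells were highest (12.72 to 12.87), the late whole arrays (12.13 to 12.17) and the GFP cells of E14.5 (12.14 and 12.17) overlapped, and the whole arrays of E13.5 were lowest. For Slc6a9 the late GFP cells were highest, and the GFP cells of E14.5 (10.61 and 10.87) stood just above late whole (10.44 to 10.58). Abat fell into 2 blocks without a further order, 10.85 to 11.12 in all GFP arrays and 10.22 to 10.66 in all whole arrays. Slc6a13 was highest in whole at E13.5 and E14.5, which overlapped, and its late whole arrays overlapped the GFP arrays of every age.

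A second probe set that RefSeq's synonyms assign to Abat was outside the rule for the 8 genes. It was higher in GFP cells by 0.39 ± 0.10, 0.59 ± 0.11 and 0.69 ± 0.10 in order of age, with adjusted p of 0.0103, 0.000891 and 0.000206. In whole it was lower late than at E13.5 (-0.32 ± 0.10, adjusted p = 0.0292), where the first probe set did not pass.

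Related genes of transport followed the sort unevenly. Of 9 other carriers of GABA, glycine and taurine 3 were higher and 2 lower in GFP cells at E13.5 (median -0.26, against -0.04 over all genes), 3 and 4 at E14.5 and 3 and 4 late. The glutamine carrier Slc38a3 was higher by 0.83 ± 0.12, 1.39 ± 0.13 and 0.82 ± 0.12 at the 3 ages. Slc7a10, an amino acid carrier of astrocytes that moves serine and glycine, was higher by 1.25 ± 0.11 at E14.5 and rose within GFP cells by 1.69 ± 0.10 to the late age. The taurine carrier Slc6a6 was lower by -1.19 ± 0.17 at E14.5 and -1.38 ± 0.15 late.

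Enzymes around the transmitters formed 2 lists. Among 10 enzymes of GABA, glutamine and glutamate, 4 were higher and 1 lower at E13.5, 4 and 2 at E14.5, and 4 and 1 late. Their medians were 0.21, 0.14 and 0.16, against -0.04, -0.03 and 0.04 over all genes. Glud1, glutamate dehydrogenase, exceeded whole by 1.11 ± 0.09 at E13.5, 1.51 ± 0.10 at E14.5 and 0.76 ± 0.09 late. Glul, glutamine synthetase, was higher by 0.98 ± 0.11, 1.44 ± 0.12 and 0.44 ± 0.11 in order of age. Aldh5a1, which acts after Abat in GABA breakdown, was higher by 0.81 ± 0.10 at E13.5 and 0.50 ± 0.10 late. Of 10 enzymes of glycine and serine, 6 were higher and 0 lower at E13.5 and at E14.5, and 4 and 0 late. Gcsh and Gldc, parts of the glycine cleavage system, were each higher by 0.86 at E13.5 (SE 0.14 and 0.11). Psat1, of serine synthesis, exceeded whole by 0.86 ± 0.10 and then 1.10 ± 0.11, and its late difference of 0.32 ± 0.10 did not pass (adjusted p = 0.058). The change of the sort difference from E14.5 to the late age passed lower for 3 of 10 GABA, glutamine and glutamate enzymes and higher for 1. Of the 10 glycine and serine enzymes 2 passed lower and 0 higher, where 3.2% of all genes passed lower and 1.95% higher. Among those lower, the difference became smaller by -0.75 ± 0.13 for Glud1, -0.995 ± 0.163 for Glul and -0.78 ± 0.15 for Psat1. Medians for the glycine and serine list were 0.55, 0.59 and 0.32.

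Receptors were divided between the sorts. In the list of 20 receptor subunits, gephyrin and chloride cotransporters, 4 were higher and 8 lower in GFP cells at E13.5, 5 and 10 at E14.5, and 3 and 6 late. The GABA-A subunit Gabrg1 measured 9.99 to 10.06 in GFP cells against 7.35 to 7.67 in whole at E13.5 (2.47 ± 0.11). By the late age its difference had become smaller by -1.80 ± 0.15. In that change 3 of the 20 passed lower and 2 higher, where 3.01% of all genes passed lower and 1.62% higher. Gabrb1 was higher in GFP cells by 2.02 ± 0.26 at E14.5, while Gabrb2 was lower by -1.85 ± 0.18 late. From E14.5 to the late age the difference of Gabrb1 became smaller by -1.38 ± 0.34. In that change 3 of the 20 passed lower and 1 higher, where 3.2% of all genes passed lower and 1.95% higher. The glycine receptor subunit Glra2 differed by -1.58 ± 0.21 at E13.5 and by -1.96 ± 0.23 at the next age. Gabbr2, a subunit of the GABA-B receptor, rose within GFP cells by 2.50 ± 0.09 from E13.5 to the late age, and Glra1 fell by 2.00 ± 0.15.

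**Figure D3:**
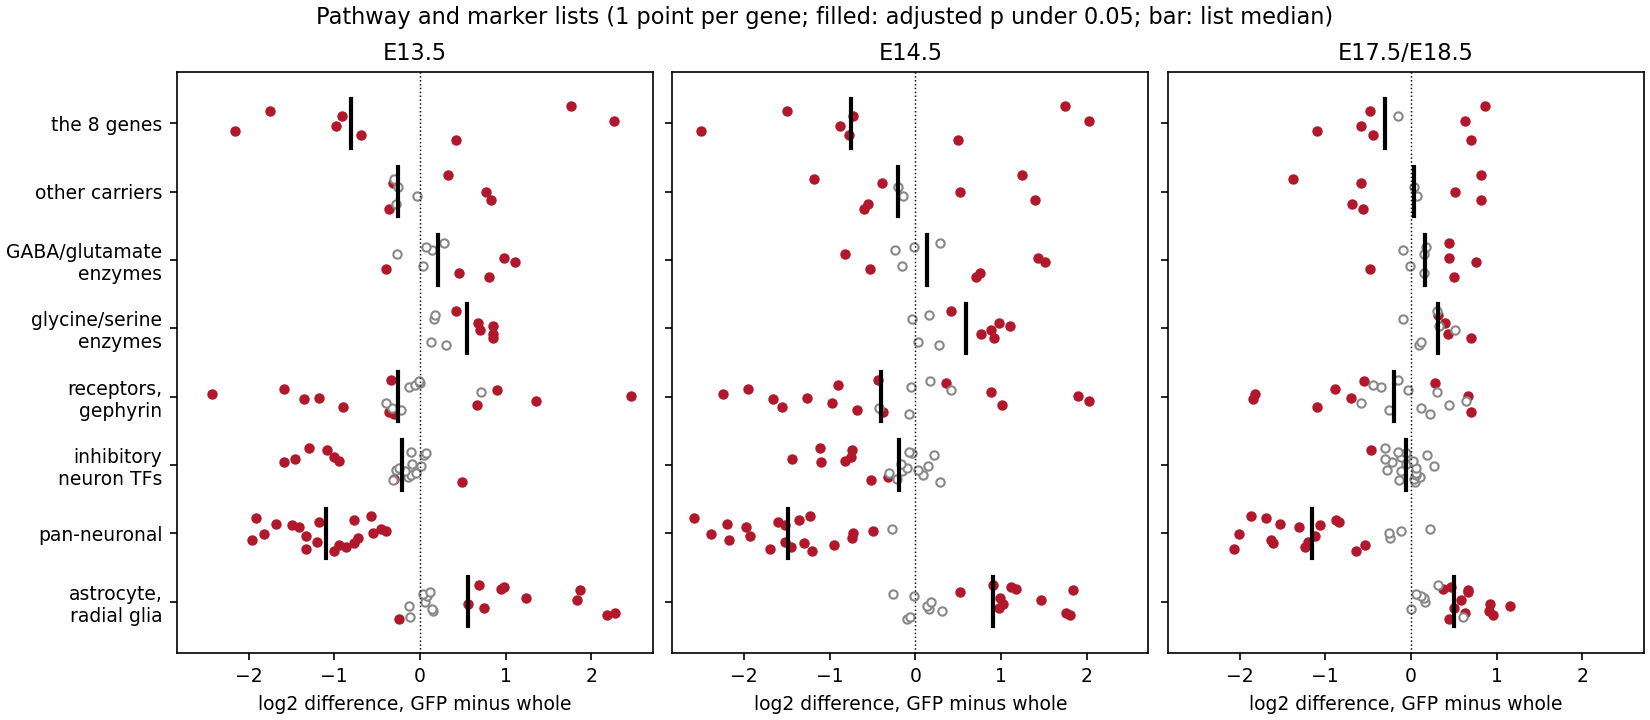
Log2 difference between GFP cells and all live cells at 3 ages for the genes of each list, 1 point per gene (filled, adjusted p under 0.05) with the list median as a bar. All 20 pan-neuronal genes lie below 0 at E13.5, the glycine and serine enzymes have a median of 0.55, and the receptors spread from -2.42 to 2.47.

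The authors' deposited module table gives each gene's correlation with 10 coexpression modules (kME). In it Slc6a11 belonged to the yellow module (kME 0.948) and Slc6a9 was highest in turquoise (0.910). Gad2 (0.970) and Slc6a5 (0.962) belonged to blue, where Slc32a1 reached 0.928, Slc6a13 0.872 and Gad1 0.829. In the authors' deposited table Gad1 was slightly closer to purple (0.831), and Abat was highest in turquoise (0.770) and lowest in purple (-0.864). By the stricter of the authors' 2 rules, 3 of the 8 genes had a module, Slc6a11 in yellow and Gad2 and Slc6a5 in blue. Under that rule yellow held 0.661% and blue 1.32% of all rows. The other rule added Slc6a9 in turquoise and Slc6a13 in blue, modules that held 1333 and 1238 genes under it.

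**Figure D4:**
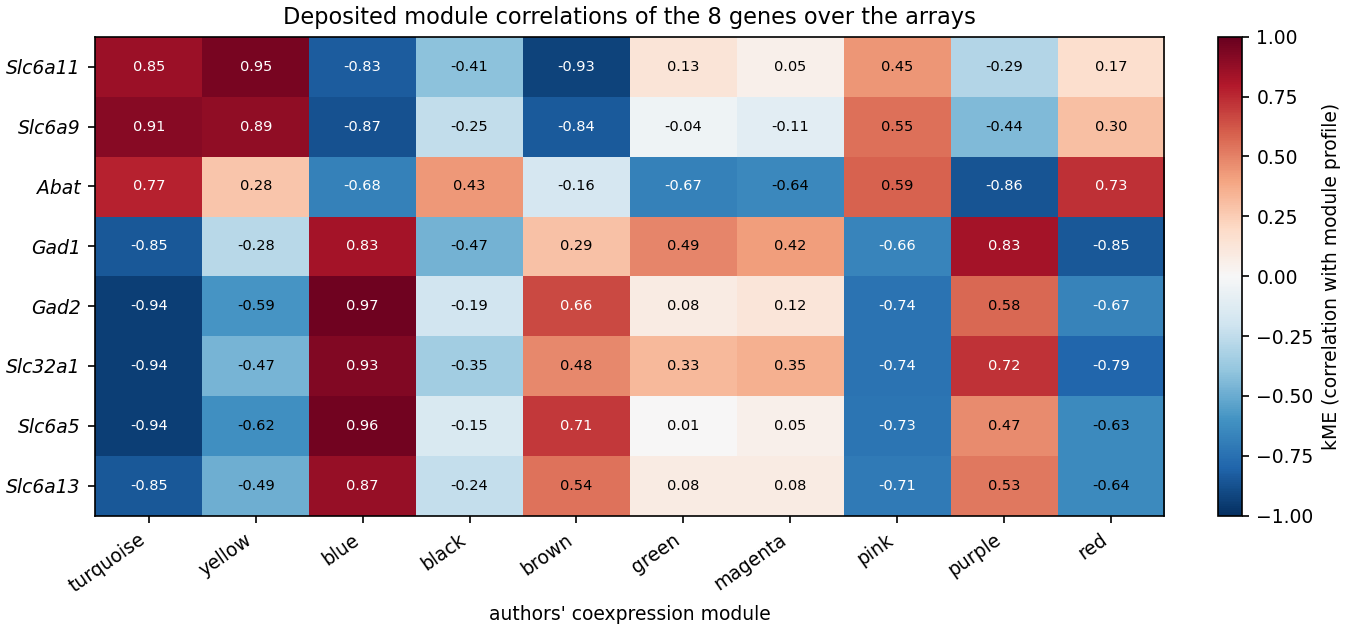
The authors' deposited kME, the correlation of each gene (rows) with each module profile (columns) over the arrays, from -1 (blue) to 1 (red). Slc6a11 and Slc6a9 are positive in turquoise and yellow, and the 5 genes lower in GFP cells are positive in blue.

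Genes with the most similar profile over the 17 arrays, by Pearson's r and as a description, repeat that division. Slc6a11 was closest to Sparcl1 (0.988), Timp4 (0.987) and Ndrg2 (0.986), and Slc6a9 to Ndrg2 (0.989), Fnbp1 (0.989) and Pygb (0.988). Slc6a5 was closest to Runx1t1 (0.992), Nol4 (0.983) and Mab21l2 (0.982). Gad2 was closest to Arhgap20 (0.980), Stmn3 (0.979) and Cntnap5a (0.977), and Slc32a1 to Snap91 (0.978), Dnm3 (0.976) and Ppfia2 (0.973). Gad1 was closest to Tes (0.976), Tafa1 (0.966) and Cntn4 (0.953). Slc6a13 (Cdk14 0.933, Clcn4 0.932, Foxc2 0.931) and Abat (4833439L19Rik 0.911, Mapkap1 0.903, Rxra 0.901) had looser neighbours. These arrays share the sort and age differences, and r was taken over all of them. Slc6a11 and Slc6a9 correlated with each other at 0.975, and Gad2 and Slc6a5 at 0.971.

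The authors' deposited tables of selected genes listed 7 of the 8 genes at E13.5, without Abat. That table holds 1875 genes, where 23715 genes were tested here. In the authors' deposited table Slc6a11 had a fold of 4.83 and Gad2 of 0.223, GFP cells over whole, with adjusted p of 0.0218 and 0.0116. At E14.5 the authors' deposited table, of 552 genes, listed only Gad2. Its fold was 0.351 (adjusted p = 0.139), where the 2 assigned GFP arrays gave 0.177. That deposited table has 3 columns headed for GFP cells at E14.5. Gad2 measured 10.42 on the array called mislabeled, against 7.41 and 7.50 on the 2 assigned GFP arrays. Averaging these 3 values gives the deposited fold, so that fold and its p do not rest on the 2 assigned GFP arrays alone. At the late age the authors' deposited table, of 683 genes, listed only Abat, with a fold of 1.63 and an adjusted p of 0.00313.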

How the data were processed

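The deposited values are the authors' log2 expression values per probe set, 35556 on each of 18 arrays. The submitters' processing notes name oligo, limma and RMA, give mm9 as the build, and give no version. Per the labels' protocols, TRIzol RNA was treated with DNase, amplified (NuGEN WT Ovation) and labelled with biotin. Their deposited comparison tables hold p-values and folds of GFP over whole, as a linear ratio, and the authors' module table holds a score (kME) per module. Not used were 9 value columns of the E13.5 table and 18 of the E14.5 table.

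The value table numbers its probe sets. Names came from matching values within 1e-08: 1863 of 1875 genes of the E13.5 table, then all 23890 rows of the module table through kME recomputed on linear values, 135 of which matched several probe sets. Symbols were updated through RefSeq (GRCm38.p6): 17202 were current and 3306 older. For 37 genes with several probe sets the brightest was used.

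limma 3.58.1 in R 4.3.3 was fitted to 6 group means (11 residual degrees of freedom), with 9 comparisons, and was tested on simulated data. Arrays carry no read depth; their number limits the precision. The 8 genes, lists, tests and alternatives were chosen with earlier results of these data known. All 8 genes are named in each comparison; from a list, at most the 3 largest changes past the threshold in a comparison, genes shown beside a result, and the 3 most correlated genes. The values of 2 list genes that this rule names are not reported here. Alternatives changed the scaling, the filter on dim genes, the probe sets, the groups in the fit, the prior, the E18.5 arrays, the replicate block, and left out each array.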

Additional observations from a re-analysis of the deposited data

Results flagged for a closer look

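The difference between GFP cells and whole changed with age by a test of the change itself. Late minus E13.5, the values were -1.64 for Slc6a11, -0.89 for Slc6a9, 1.27 for Slc6a5, 1.07 for Gad2, 0.76 for Slc6a13 and 0.40 for Slc32a1. Late minus E14.5, they were -1.40 for Slc6a11, -0.88 for Slc6a9, 1.02 for Slc6a5 and 1.40 for Gad2. At the late age the estimates of these 6 genes kept the direction of the earlier ages, and Slc6a13 overlapped between the sorts and did not pass.

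The array called mislabeled in its title, which entered no comparison, had higher values than all 3 whole arrays of E14.5 for 5 genes. It measured 10.42 for Gad2, 9.80 for Slc6a5, 8.96 for Slc32a1, 8.19 for Gad1 and 8.12 for Slc6a13. The highest whole arrays of that age measured 10.20, 9.15, 8.87, 7.93 and 7.91 in the same order.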

How the results depend on the processing

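Of 630 values of the 8 genes under the alternatives that kept every array or all but the E18.5 arrays, 603 kept their direction and their side of the threshold, 16 lost the call, 3 gained it and 8 changed sign. The 8 were small and uncalled in both fits: for GFP cells E14.5 against E13.5, Slc6a5 -0.020 and Gad1 -0.025 under quantile normalization and, again, -0.018 and -0.024 with arrays shifted to a common median, and Abat 0.026 with the mean of its probe sets; for late against E14.5, Abat -0.0031 with that mean and Gad2 -0.035 without the E18.5 arrays; and, for the late sort comparison, Slc6a13 0.018 without the same arrays.

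Leaving out 1 array changed signs only among uncalled values, whose ranges over these fits were, for GFP late against E13.5, -0.154 to 0.0323 for Slc6a5; for GFP E14.5 against E13.5, -0.0732 to 0.113 for Slc6a5, -0.0519 to 0.0740 for Gad1, -0.101 to 0.00562 for Abat and -0.0256 to 0.25 for Slc6a13; for GFP late against E14.5, -0.0920 to 0.183 for Slc6a13, -0.0408 to 0.0312 for Slc32a1, -0.134 to 0.00636 for Slc6a5 and -0.0349 to 0.156 for Gad2; and for whole late against E13.5, -0.146 to 0.00723 for Gad1.

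Of the 8 genes, 2 passed for GFP late against E14.5 without dim genes and with only the groups compared (1 otherwise), and 1 passed for GFP E14.5 against E13.5 with all probe sets and with only the groups compared (2 otherwise). With 1 array left out these counts ran from 0 to 1 and from 0 to 2, and that of the late sort comparison from 4 to 6 (7 with all arrays). Over all genes, GFP E14.5 against E13.5 had 358 calls, 238 with all probe sets, 563 without the E18.5 arrays and 102 to 252 with 1 array left out. With only the groups compared, the late sort comparison had 1022 (2209 otherwise), GFP late against E14.5 had 544 (1493 otherwise; 657 to 1364 with 1 array left out) and the change of the sort difference from E14.5 had 699 (1222 otherwise; 641 to 1300 with 1 array left out). The causes were not tested.

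The share of calls higher in GFP cells moved from 58.0% to 72.6% at E13.5 with a common median and from 49.8% to 60.3% late without dim genes. With a common median, calls higher late in GFP cells moved from 45.0% to 33.0%, and those of the change from E13.5 from 35.1% to 24.3%.

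Deviations of same-numbered arrays of an age correlated at -0.08 to 0.12, and those of differently numbered arrays at -0.18 to 0.10. With 2 or 3 arrays per group this cannot decide whether the numbers pair arrays. In the late group replicate 3 is the E18.5 array in both sorts. With the replicate block the change of the sort difference from E14.5 had 764 calls, Slc6a13 at E14.5 had adjusted p = 0.0596, and its change and that of Slc32a1 from E13.5 had 0.0691 and 0.0851; no other call of the 8 genes changed. That Slc6a13 change also failed under quantile normalization (0.0848), a common median (0.0601) and all probe sets (0.111), and that of Slc32a1 under a common median (0.0715), only the groups compared (0.0652) and without the E18.5 arrays (0.0596). The late calls of Slc6a5 and Gad1 ended with only the groups compared (0.0796 and 0.103), and that of Slc6a11 with all probe sets (0.0709).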

Other observations

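On the array called mislabeled, the 3 genes that were higher in GFP cells measured 8.38 for Slc6a11, 8.22 for Slc6a9 and 10.38 for Abat. The 2 assigned GFP arrays of the same age measured at least 12.14, 10.61 and 10.85 for these genes.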
